A study of Homo sapiens with 12 samples.

Results

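The genes described here are 42 interferon-induced antiviral effector genes, chosen by name from the 60448 genes of a read-count table. They comprise 4 IFIT, 3 IFITM, 4 OAS, 3 GBP and 2 MX genes, 4 genes of ISG15 conjugation, 3 of ADP-ribosylation, 3 TRIM genes, SAMD9 and SAMD9L, the viperin pair RSAD2 and CMPK2, 3 genes for membrane and secreted proteins, 5 IFI genes and 4 others. A total of 43 rows carried a member's name, because SP110 had a second row at 0 counts in every sample, and that row was not used. All 42 members passed the filter on low counts in all comparisons, so no member was left untested. RNA sequencing was carried out in 786-O cells, an established line from a human clear cell renal cell carcinoma (ccRCC) that lacks a functional VHL protein. The cells were transiently transfected with a control siRNA (siNC) or with an siRNA against GABPA (siGABPA), GPD1L (siGPD1L) or BRD9 (siBRD9), with 3 samples in each of the 4 groups. All groups share the cell line and the transfection, and no group of untransfected cells was analysed here. Each group rests on 1 cell line and on siRNA whose number per gene the labels do not give, and the p-values measure the spread between these samples. Independent experiments are stated for the RNA sequencing of siGABPA and siNC, while the siGPD1L and siBRD9 groups are not described in the sources used here beyond their labels. Total counts were 21419987 to 24469305 in siNC, 26395629 to 27363062 in siGABPA, 27440715 to 28650340 in siGPD1L and 19499090 to 29999290 in siBRD9. Levels are given as CPM, counts scaled to a common library size with TMM factors over the 12 samples, and a gene was called changed at a false discovery rate (FDR) under 0.05 and a fold change over 1.5, which is 0.585 on the log2 scale. With 3 samples against 3 an exact permutation test of a single gene cannot go below p = 0.1, so the edgeR fit across all genes was used.

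The targeted genes were examined first. GABPA, a subunit of an ETS family transcription factor, was at 44.5, 51.2 and 42.9 CPM in siNC and at 16.9, 14.3 and 15.3 CPM in siGABPA. GABPA was also lower in the other two targeting groups, at 25, 26 and 25.8 CPM in siGPD1L and 25.3, 26.1 and 30.5 CPM in siBRD9. All 9 targeting samples were below all siNC samples, and the siGABPA samples were the lowest. The log2 fold change of GABPA against siNC was -1.57 ± 0.075 in siGABPA, -0.85 ± 0.062 in siGPD1L and -0.75 ± 0.074 in siBRD9 (± SE, n = 3 in each group), called lower in each. GPD1L, a protein related to glycerol-3-phosphate dehydrogenase, was at 19.1, 19.4 and 20.3 CPM in siNC and 6.52, 5.92 and 7.49 CPM in siGPD1L, a log2 fold change of -1.56 ± 0.093 (SE). BRD9, a bromodomain subunit of a SWI/SNF chromatin remodelling complex, was at 98.8, 101 and 102 CPM in siNC and 23.2, 24.9 and 27.8 CPM in siBRD9, a log2 fold change of -1.99 ± 0.055 (SE). BRD9 was also below all siNC samples in siGABPA, at 80.9, 79 and 72 CPM, and in siGPD1L, at 76, 80.6 and 72 CPM. Its log2 fold change in siGABPA was -0.38, which was not called. GABPA shares part of its locus with ATP5PF on the other strand, and no strand setting is given for the counts, so reads of these 2 genes may not be fully separated.

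Interferons are secreted proteins that cells release when their sensors meet viral or misplaced nucleic acid. Type I and type III interferons bind their own receptors and activate the kinases JAK1 and TYK2. These lead to the factor ISGF3, of which STAT2 and IRF9 are parts and which binds the interferon-stimulated response element (ISRE) in the promoters of interferon-stimulated genes. The products of these genes block virus entry, translation, RNA stability, replication or budding, and the same genes are often active at a low level in tumour cells without infection.

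Promoter sequences from RefSeq (GRCh38.p14, 250 bases before to 50 after each gene's start) were found for 35 of the 42 members. They were searched on both strands for the ISRE core GAAANNGAAA, where N is any base. At least 1 entry held a match for 27 of these 35 members (77.1%), against 4.38% of all 27305 genes in the same table. In 13 members (37.1%) an entry held 2 or more matches, against 0.311% of all genes. For 6 members, 1 per subfamily with the most counts among those with a match before the start, 60 bases are shown 5′ to 3′ on the gene's strand, with the core in capitals (a match on the other strand reads TTTCNNTTTC).
IFIT3, chr10:89332453-89332512, plus strand: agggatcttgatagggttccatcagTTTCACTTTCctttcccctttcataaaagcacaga
IFITM3, chr11:320861-320920, minus strand: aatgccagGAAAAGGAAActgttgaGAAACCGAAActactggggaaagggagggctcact
OAS3, chr12:112938414-112938473, plus strand: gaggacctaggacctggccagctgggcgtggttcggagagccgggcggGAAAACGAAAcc
GBP1, chr1:89065301-89065360, minus strand: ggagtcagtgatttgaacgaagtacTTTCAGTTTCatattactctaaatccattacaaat
MX1, chr21:41431829-41431888, plus strand: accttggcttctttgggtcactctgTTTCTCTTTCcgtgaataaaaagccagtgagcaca
ISG15, chr1:1013365-1013424, plus strand: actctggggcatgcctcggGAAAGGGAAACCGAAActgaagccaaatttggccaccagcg
IFITM3 and ISG15 show 2 core matches within these stretches, and in ISG15 the 2 overlap so that they read as 1 run of capitals. The core ended 2 bases before the start in OAS3, 25 in IFITM3, 41 in IFIT3, 97 in ISG15 and 117 in GBP1. For MX1, which has 3 entries in the table, it ended 186 bases before the start of the entry shown. A match is a description of the letters in the window. By subfamily, a match in any entry was found for 3 of 3 IFIT, 2 of 2 IFITM, 1 of 2 OAS, 2 of 2 GBP and 1 of 1 MX genes with a promoter in the table. IFIT2, IFITM2, OAS2, OASL, GBP2, MX2 and TRIM22 had no promoter in the table and were not searched.

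The antiviral effector genes were higher in each targeting group than in siNC, most of all IFITM1, IFI27, OAS2, MX2 and IFI6, and least in the GBP and TRIM groups. In siGABPA 37 of the 42 members were called higher and 0 lower, where 21.3% of the 16140 genes tested were called higher and 15.2% lower. In siGPD1L 38 members were called higher and 0 lower, against 20.4% and 15.5% of 15929 genes, and in siBRD9 37 were called higher and 0 lower, against 16.7% and 11.5% of 15475 genes. Of the other members, none had an FDR under 0.05 with a negative fold change in these 3 comparisons. The median log2 fold change of the 42 members was 1.69 in siGABPA, 1.94 in siGPD1L and 1.71 in siBRD9, where the medians of all genes tested were 0.02, 0.01 and 0.01. The 3 comparisons share the same siNC samples, so what is common to them cannot be told apart from what is particular to those siNC samples. The ranks of the members among all genes by fold change were high as well: 5 members stood among the top 50 of 16140 genes in siGABPA, 4 in siGPD1L and 5 in siBRD9, and 17, 18 and 21 among the top 500.

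The members' share of all counts was higher in the targeting groups as well. It was 0.26% ± 0.00333 of counts in siNC (SD, n = 3), from 0.257% to 0.264%. In siGABPA it lay between 1.2% and 1.24%, in siGPD1L between 1.14% and 1.17%, and in siBRD9 between 0.93% and 0.972%. The 4 groups did not overlap, with siNC lowest, siBRD9 next and siGABPA highest. A few genes carried much of the total. IFI6, which encodes a small membrane protein that blocks replication of some RNA viruses, held 15.1%, 13.9% and 14% of the member counts in siGABPA, siGPD1L and siBRD9. In siNC LGALS3BP, a secreted galectin-binding glycoprotein, held 18.2%. Per kilobase of exon, BST2 (tetherin, which holds budding virions at the cell surface) had the highest level of the members in siNC, at 363.8 CPM per kb. In the targeting groups IFI6 was highest per kilobase, with 2015, 1791 and 1532 CPM per kb in siGABPA, siGPD1L and siBRD9, followed by ISG15 with 1047, 1205 and 1039 CPM per kb.

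**Figure D1:**
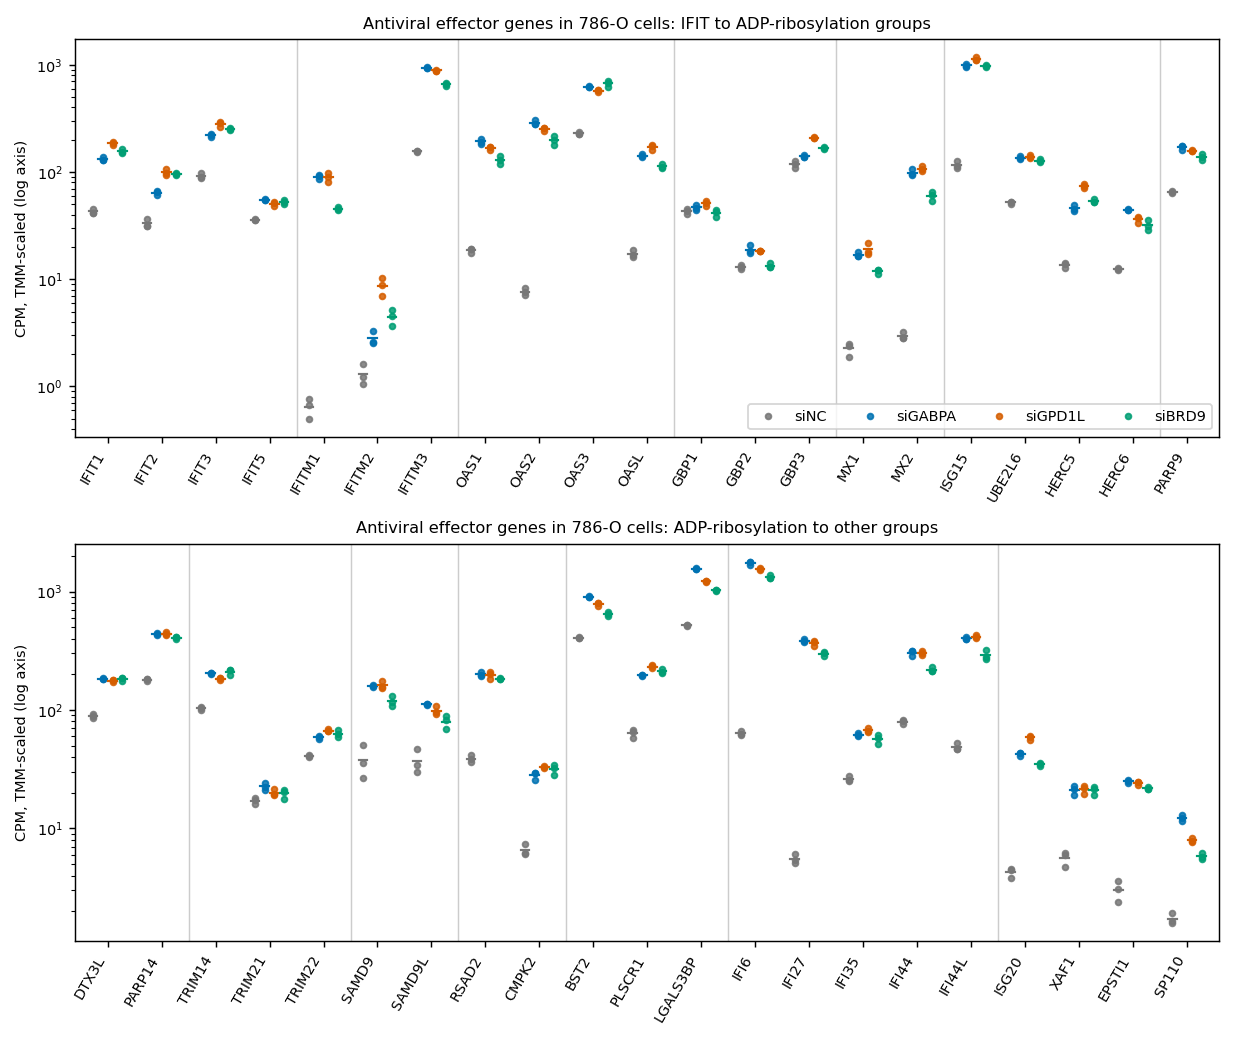
Level of each of the 42 members in each sample, in TMM-scaled CPM on a log axis, with 3 points per group, a bar at the mean and vertical lines between role groups. The siNC points lie below the targeting points for most genes, with the widest gaps for IFITM1, IFI27, OAS2 and MX2, while those of GBP1 lie among them.

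The IFIT proteins bind viral RNA that lacks the cap modifications of host mRNA and stop its translation. The IFIT genes lie in a row on chromosome 10 (GRCh38, IFIT2 from position 89283694, IFIT5 to 89421001). IFIT1 was at 45.5, 41.9 and 41.9 CPM in siNC, 131, 130 and 137 with siGABPA, 187, 191 and 177 with siGPD1L and 151, 153 and 163 with siBRD9. The 4 groups of IFIT1 values did not overlap, and siGPD1L was the highest. Its log2 fold change against siNC was 1.62 ± 0.042 in siGABPA, 2.11 ± 0.045 in siGPD1L and 1.86 ± 0.046 in siBRD9 (SE). IFIT2 was at 36.6, 31.2 and 31.6 CPM in siNC, 64.8, 60.4 and 66 with siGABPA, 98.5, 107 and 94.2 with siGPD1L and 97.2, 96.2 and 93.9 with siBRD9. The siGABPA samples of IFIT2 stood between siNC and the other two targeting groups, which overlapped. IFIT3, which stabilises IFIT1 on RNA, had a log2 fold change of 1.26 in siGABPA, 1.62 in siGPD1L and 1.48 in siBRD9. IFIT5, which binds RNA with a 5′ triphosphate, had the smallest change of the subfamily: it was called only in siGABPA, at 0.62 ± 0.044 (SE), and was 0.49 in siGPD1L and 0.56 in siBRD9, both with an FDR under 0.05 but below the fold threshold. The medians of the 4 IFIT genes were 1.10, 1.61 and 1.51 in siGABPA, siGPD1L and siBRD9. IFIT1, IFIT2 and IFIT3 overlap LIPA on the other strand, and IFIT1 has a pseudogene.

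The IFITM proteins sit in plasma and endosomal membranes and hinder fusion of virus with the cell. They included the member with the largest change. IFITM1 had 13, 10 and 17 counts in the siNC samples, which is 0.668, 0.502 and 0.763 CPM, and rose to 92.3, 85.6 and 93.3 CPM in siGABPA, 90.5, 80 and 97.5 with siGPD1L and 47, 44.8 and 43.9 with siBRD9. The siGABPA and siGPD1L samples of IFITM1 overlapped, and all siBRD9 samples were lower than these. With a log2 fold change of 7.11 ± 0.099 in siGABPA, 7.10 ± 0.12 in siGPD1L and 6.12 ± 0.12 in siBRD9 (SE), IFITM1 had the largest change of the 42 members in each comparison. The linear fold was 138, 137 and 69.8, against a control of few counts. IFITM3 was at 157, 157 and 155 CPM in siNC and reached 928, 953 and 926 with siGABPA, 879, 882 and 896 with siGPD1L and 663, 638 and 673 with siBRD9. Its log2 fold change was 2.58 ± 0.028 in siGABPA, 2.51 ± 0.031 in siGPD1L and 2.09 ± 0.034 in siBRD9 (SE), and the order siGABPA, siGPD1L, siBRD9 held without overlap. IFITM2 had few reads in every sample. It was at 1.23, 1.05 and 1.62 CPM in siNC, 3.32, 2.54 and 2.57 with siGABPA, 10.2, 8.79 and 6.99 with siGPD1L and 5.17, 4.55 and 3.66 with siBRD9. IFITM2 was highest in siGPD1L and, among the targeting groups, lowest in siGABPA, with no overlap between any of the 4 groups. The IFITM genes lie side by side on chromosome 11, IFITM1 and IFITM2 overlap on the same strand, and their sequences are close to that of IFITM3, so the split of reads among the 3 is uncertain.

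The OAS proteins make 2′-5′ oligoadenylates on double-stranded RNA, which switch on the nuclease RNase L. OASL lacks this activity and strengthens RIG-I signalling. OAS1, OAS3 and OAS2 lie in a row on chromosome 12 (GRCh38, 112906777 to 113011723). OAS2 was at 7.09, 7.68 and 8.21 CPM in siNC, 279, 280 and 306 with siGABPA, 243, 258 and 255 with siGPD1L and 201, 179 and 215 with siBRD9. All targeting samples of OAS2 were far above siNC, and the siGABPA samples were the highest. The log2 fold change of OAS2 was 5.23 ± 0.058 in siGABPA, 5.04 ± 0.056 in siGPD1L and 4.70 ± 0.075 in siBRD9 (SE). OAS1 was at 17.6, 19.1 and 19.2 CPM in siNC, 191, 182 and 205 with siGABPA, 160.2, 171 and 169.8 with siGPD1L and 129, 119 and 141 with siBRD9, with the same order and no overlap. OASL was at 18.7, 16.1 and 16.8 CPM in siNC, 140.1, 137 and 147 with siGABPA, 179, 173 and 161 with siGPD1L and 111, 119 and 109 with siBRD9, here with siGPD1L highest. OAS3 had the smallest change of the OAS genes, a log2 fold change of 1.44 in siGABPA, 1.33 in siGPD1L and 1.56 in siBRD9. Its siNC samples were at 225, 224 and 238 CPM and its siBRD9 samples, at 683, 618 and 714, overlapped those of siGABPA. OAS1, OAS2 and OAS3 share their locus with the transcript AC004551.1 on the other strand.

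The guanylate-binding proteins (GBP) are GTPases that coat intracellular pathogens and are best known as targets of interferon gamma. They changed least of the subfamilies. GBP1 was at 43.6, 45.2 and 40.9 CPM in siNC, 44.7, 46.2 and 49.5 with siGABPA, 51.6, 53.4 and 48.5 with siGPD1L and 42.5, 38.1 and 44.1 with siBRD9. Its siNC samples overlapped those of siGABPA and siBRD9, and it was the only member whose lowest group mean was not that of siNC. Its log2 fold change was 0.11 ± 0.052 in siGABPA, 0.25 ± 0.052 in siGPD1L and -0.04 ± 0.06 in siBRD9 (SE), with an FDR of 0.059, 0.000213 and 0.557, and it was called in none of the 3. The direction of GBP1 in siBRD9 depended on the scaling, as it was 0.08 with total counts alone. GBP2 was at 13.1, 13.7 and 12.3 CPM in siNC, 17.4, 20.8 and 18.5 with siGABPA, 18.5, 18.3 and 18.5 with siGPD1L and 14.2, 13.1 and 13 with siBRD9, and was not called. Its siGABPA value, 0.54, passed the threshold at 0.75 with total counts alone, at 0.59 with at least 10 counts in every sample and at 0.60 without the first siGABPA sample. Its siGPD1L value, 0.51, passed at 0.68 with total counts alone. GBP3 was at 119.9, 126 and 109 CPM in siNC, 137, 139 and 145 with siGABPA, 207, 212 and 208 with siGPD1L and 169.8, 169 and 164 with siBRD9. It was called only in siGPD1L, at 0.82 ± 0.042 (SE), while its values were 0.24 in siGABPA and 0.51 in siBRD9. The medians of the 3 GBP genes were 0.24, 0.51 and 0.06, beside 3.21, 3.25 and 2.77 for the 4 OAS genes in siGABPA, siGPD1L and siBRD9.

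MX1 and MX2 are dynamin-like GTPases that trap viral nucleocapsids, MX1 in the cytoplasm and MX2 at the nuclear pore. Both lie on chromosome 21. MX2 was at 2.83, 2.86 and 3.23 CPM in siNC, 96.1, 92.9 and 106 with siGABPA, 102, 113 and 106 with siGPD1L and 64.6, 53.5 and 60.9 with siBRD9. MX1 was at 1.9, 2.51 and 2.38 CPM in siNC, 16.4, 17.8 and 16.5 with siGABPA, 18, 21.6 and 17.4 with siGPD1L and 12.1, 11.3 and 12.1 with siBRD9. For both genes siGABPA and siGPD1L overlapped and siBRD9 lay between them and siNC. The log2 fold change was 5.04 ± 0.081 in siGABPA, 5.17 ± 0.075 in siGPD1L and 4.34 ± 0.097 in siBRD9 for MX2 (SE), and 2.90 ± 0.11 in siGABPA, 3.07 ± 0.13 in siGPD1L and 2.39 ± 0.13 in siBRD9 for MX1 (SE).

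**Figure D2:**
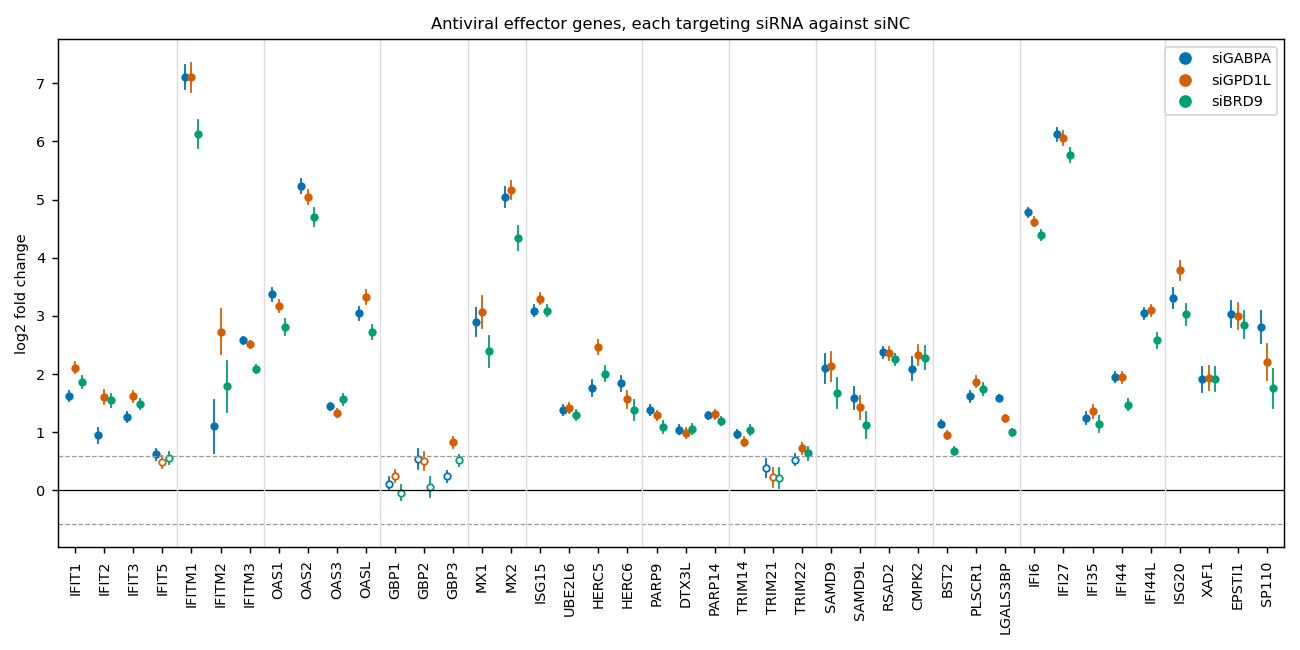
Log2 fold change of each member in siGABPA, siGPD1L and siBRD9 against siNC, with 95% confidence intervals; filled points were called and dashed lines mark a fold change of 1.5. IFITM1 stands highest, at 7.11, 7.10 and 6.12, and the GBP genes and TRIM21 lie near or under the upper dashed line, with GBP3 in siGPD1L above it.

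ISG15 is a ubiquitin-like protein that UBE2L6 and HERC5 attach to newly made proteins, and HERC6 is a related ligase. ISG15 was at 113, 108 and 126 CPM in siNC, 976, 964 and 1016 with siGABPA, 1120, 1170 and 1112 with siGPD1L and 952, 975 and 1006 with siBRD9. All targeting samples of ISG15 were far above siNC, with siGPD1L the highest. The log2 fold change was 3.09 ± 0.043 in siGABPA, 3.30 ± 0.045 in siGPD1L and 3.09 ± 0.045 in siBRD9 (SE). UBE2L6, its conjugating enzyme, changed less, by 1.38 in siGABPA, 1.42 in siGPD1L and 1.29 in siBRD9 on the log2 scale, and was the smallest of this group. HERC5, the ligase, was at 14.1, 13.8 and 12.6 CPM in siNC, 43.5, 45.1 and 49 with siGABPA, 73.6, 77.3 and 71 with siGPD1L and 52.6, 55.7 and 53.1 with siBRD9, and its groups did not overlap. All 4 genes of ISG15 conjugation were called higher in each targeting group.

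PARP9, PARP14 and DTX3L act in ADP-ribosylation and ubiquitination of interferon signalling proteins. All 3 were called higher in each targeting group, with log2 fold changes between 0.99 and 1.39. PARP9 had the largest change in siGABPA, 1.39 ± 0.04 (SE), and PARP14 in siGPD1L and siBRD9, 1.31 ± 0.034 and 1.19 ± 0.034 (SE). PARP9 and DTX3L are neighbours that overlap on opposite strands. Most TRIM proteins are ubiquitin ligases. TRIM14, which acts at mitochondria in RNA sensing, was called in each group, at 0.97 in siGABPA, 0.84 in siGPD1L and 1.03 in siBRD9. TRIM21, a cytosolic antibody receptor, was called in none, with log2 fold changes of 0.39 ± 0.073 in siGABPA, 0.22 ± 0.077 in siGPD1L and 0.22 ± 0.081 in siBRD9 (SE). TRIM22 was called in siGPD1L (0.72) and siBRD9 (0.64) but not in siGABPA (0.53), where it passed at 0.75 with total counts alone. TRIM22 overlaps TRIM5 on the other strand.

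SAMD9 and SAMD9L, neighbours that restrict poxviruses and slow growth, were called higher in each group but varied most of all members in siNC. SAMD9 was at 35.5, 50.7 and 26.6 CPM in siNC, 161, 156 and 163 with siGABPA, 155, 176 and 158 with siGPD1L and 117, 108 and 130.2 with siBRD9. The second siNC sample was the highest of its group for both genes, yet below all targeting samples. The SD of the siNC samples on the log2 scale was 0.441 for SAMD9 and 0.317 for SAMD9L, where the median over the members was 0.0732. The log2 fold change was 2.10 ± 0.12 in siGABPA, 2.13 ± 0.12 in siGPD1L and 1.67 ± 0.12 in siBRD9 for SAMD9 (SE) and 1.59 ± 0.092 in siGABPA, 1.43 ± 0.094 in siGPD1L and 1.12 ± 0.11 in siBRD9 for SAMD9L (SE). Leaving out the second siNC sample raised that of SAMD9 to 2.36, 2.40 and 1.94.

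RSAD2 (viperin) turns CTP into a nucleotide that ends viral RNA chains, and its neighbour CMPK2 supplies the nucleotide. RSAD2 was at 36.5, 41.4 and 38.3 CPM in siNC, 195, 198 and 209 with siGABPA, 203, 209 and 182 with siGPD1L and 185, 182 and 182 with siBRD9. The targeting groups of RSAD2 lay close together, and its log2 fold change was 2.37 in siGABPA, 2.36 in siGPD1L and 2.25 in siBRD9. CMPK2 changed by 2.10 in siGABPA, 2.33 in siGPD1L and 2.28 in siBRD9. The pair overlaps on opposite strands. Of the membrane and secreted proteins, LGALS3BP was at 517, 513 and 526 CPM in siNC, 1542, 1548 and 1576 with siGABPA, 1216, 1207 and 1236 with siGPD1L and 1030, 1018 and 1038 with siBRD9. The 4 groups of LGALS3BP were fully separated, in the order siNC, siBRD9, siGPD1L, siGABPA. BST2 had the smallest change of this group, 1.15 ± 0.027 in siGABPA, 0.95 ± 0.033 in siGPD1L and 0.68 ± 0.033 in siBRD9 (SE). PLSCR1, a phospholipid scramblase that hinders virus entry, had the largest, 1.62 in siGABPA, 1.87 in siGPD1L and 1.74 in siBRD9.

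IFI27 was at 6.07, 5.12 and 5.39 CPM in siNC, 382, 377 and 397 with siGABPA, 348, 380.5 and 372 with siGPD1L and 286, 306 and 300.2 with siBRD9, and its log2 fold change of 6.12 ± 0.052 in siGABPA, 6.06 ± 0.06 in siGPD1L and 5.76 ± 0.059 in siBRD9 (SE) was the second largest of the module. It encodes a mitochondrial and nuclear membrane protein widely used as a marker of interferon exposure. IFI6 was at 66.1, 62.7 and 61.7 CPM in siNC, 1681, 1783 and 1764 with siGABPA, 1589, 1520 and 1540 with siGPD1L and 1299, 1376 and 1302 with siBRD9. Both genes were lowest in siBRD9 among the targeting groups. IFI35 had the smallest change of the IFI group, 1.24 in siGABPA, 1.36 in siGPD1L and 1.15 in siBRD9. IFI44 and IFI44L, neighbours on chromosome 1, differed: IFI44L changed by 3.05 in siGABPA, 3.10 in siGPD1L and 2.58 in siBRD9 and IFI44 by 1.94 in siGABPA, 1.94 in siGPD1L and 1.48 in siBRD9. Of the others, ISG20, an RNA exonuclease, was at 4.47, 3.81 and 4.53 CPM in siNC, 43.5, 40.5 and 43.7 with siGABPA, 60.8, 59.4 and 55.9 with siGPD1L and 33.7, 34.9 and 35.3 with siBRD9. SP110, a nuclear body protein, was at 1.59, 1.66 and 1.93 CPM in siNC, 12.2, 11.4 and 12.9 with siGABPA, 7.9, 8.38 and 7.7 with siGPD1L and 5.54, 5.78 and 6.19 with siBRD9. ISG20 was highest in siGPD1L and SP110 in siGABPA, each without overlap. XAF1, a pro-apoptotic factor, had nearly the same value in each group, 1.91 ± 0.10 in siGABPA, 1.93 ± 0.10 in siGPD1L and 1.92 ± 0.10 in siBRD9 (SE). EPSTI1 changed by 3.04 in siGABPA, 3.00 in siGPD1L and 2.85 in siBRD9. SP110 overlaps SP140 on the other strand.

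The targeting groups were then compared with each other, to see whether the size of the change differed between siRNAs. Most members differed by less than 1.5-fold. Between siGABPA and siGPD1L, 1 member was called higher in siGABPA and 3 lower, where 8.54% of 16548 genes were called higher and 6.9% lower. The member higher in siGABPA was SP110, with a log2 difference of 0.61 ± 0.089 (SE, FDR 2.41e-06). Those lower were IFITM2, at -1.62 ± 0.15 (SE, FDR 7.56e-10), HERC5, at -0.69 ± 0.047, and IFIT2, at -0.64 ± 0.045. SP110 was no longer called without the third siGABPA sample (0.56) or without the third siGPD1L sample (0.58). Under the alternatives run, 0 to 14 members were called higher in siGABPA and 1 to 15 lower, with the most by FDR alone. The median difference over the 42 members was 0.002.

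Between siGABPA and siBRD9, 4 members were called higher in siGABPA and 1 lower, against 8.52% and 5.74% of 16357 genes. Higher in siGABPA were SP110 (1.07 ± 0.099, SE), IFITM1 (0.9995 ± 0.046), MX2 (0.72 ± 0.054) and LGALS3BP (0.60 ± 0.029). IFITM2 was lower in siGABPA, at -0.67 ± 0.17 (SE, FDR 0.00144), and lost its call at -0.54 without the first siBRD9 sample. LGALS3BP lost its call at 0.58 without the third siGABPA sample. IFIT2 lay at -0.58, at the edge of the threshold, and OAS1 at 0.57. Under the alternatives run, 2 to 26 members were called higher in siGABPA and 0 to 9 lower, with the most by FDR alone. The median difference was 0.20.

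Between siGPD1L and siBRD9, 6 members were called higher in siGPD1L and 0 lower, against 4.01% and 2.91% of 16240 genes. They were IFITM1 (0.98 ± 0.056, SE), IFITM2 (0.94 ± 0.14), MX2 (0.84 ± 0.052), ISG20 (0.76 ± 0.051), MX1 (0.68 ± 0.088) and OASL (0.60 ± 0.042). OASL and MX1 were near the threshold: OASL lost its call without the first siGPD1L sample (0.56), the first siBRD9 sample (0.58) or the third siBRD9 sample (0.57), and MX1 without the second siGPD1L sample (0.57). Under the alternatives run, 3 to 32 members were called higher in siGPD1L and 0 to 2 lower, with the most by FDR alone. The median difference was 0.25. Over the 3 pairs, 32 members were called in none, 6 in 1, 3 in 2 and 1, IFITM2, in all 3. The same tally was not made over all genes, so it cannot be said whether it is particular to the members.

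Small differences were more frequent than these calls. By FDR under 0.05 at any fold change, 32 members were higher in siGPD1L than in siBRD9 and 2 lower (OAS3 and TRIM14), where 19.8% of genes were higher and 19.5% lower. Between siGABPA and siBRD9, 26 members were higher in siGABPA and 9 lower, against 26% and 27.3% of genes. Between siGABPA and siGPD1L, 14 were higher and 15 lower, against 26.6% and 27.6%. The mean level was lowest in siBRD9 among the targeting groups for 29 of the 42 members, lowest in siGABPA for 9 and lowest in siGPD1L for 4. It was highest in siGPD1L for 21, in siGABPA for 19 and in siBRD9 for 2. This order was not counted over all genes, so it cannot be called particular to the members. Of all genes tested against siNC, 16.7% were called higher in siBRD9, against 21.3% in siGABPA and 20.4% in siGPD1L.

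The order of the targeting groups differed from gene to gene within the IFIT and OAS subfamilies. IFIT1, IFIT2 and IFIT3 were lower in siGABPA than in siGPD1L, with log2 differences of -0.48, -0.64 and -0.35, and also lower than in siBRD9, with -0.23, -0.58 and -0.20. OAS1 and OAS2 were higher in siGABPA than in siGPD1L, by 0.21 and 0.20, and higher than in siBRD9, by 0.57 and 0.54. The other members of both subfamilies ran differently: IFIT5 was at 0.14 for siGABPA against siGPD1L and OASL at -0.27, and OAS3 was at 0.12 against siGPD1L and -0.10 against siBRD9. All these differences had an FDR under 0.05, and of them only that of IFIT2 against siGPD1L passed the fold threshold. GBP3 was higher in siGPD1L than in siGABPA, at -0.57 ± 0.033 for siGABPA against siGPD1L (SE), a 95% confidence interval of -0.64 to -0.50 that reaches past the threshold. For ISG15 the interval of siGABPA against siBRD9 was -0.05 to 0.08, and for XAF1 the 3 pairs had intervals of -0.16 to 0.14, -0.14 to 0.17 and -0.13 to 0.17, all within a fold change of 1.5.

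**Figure D3:**
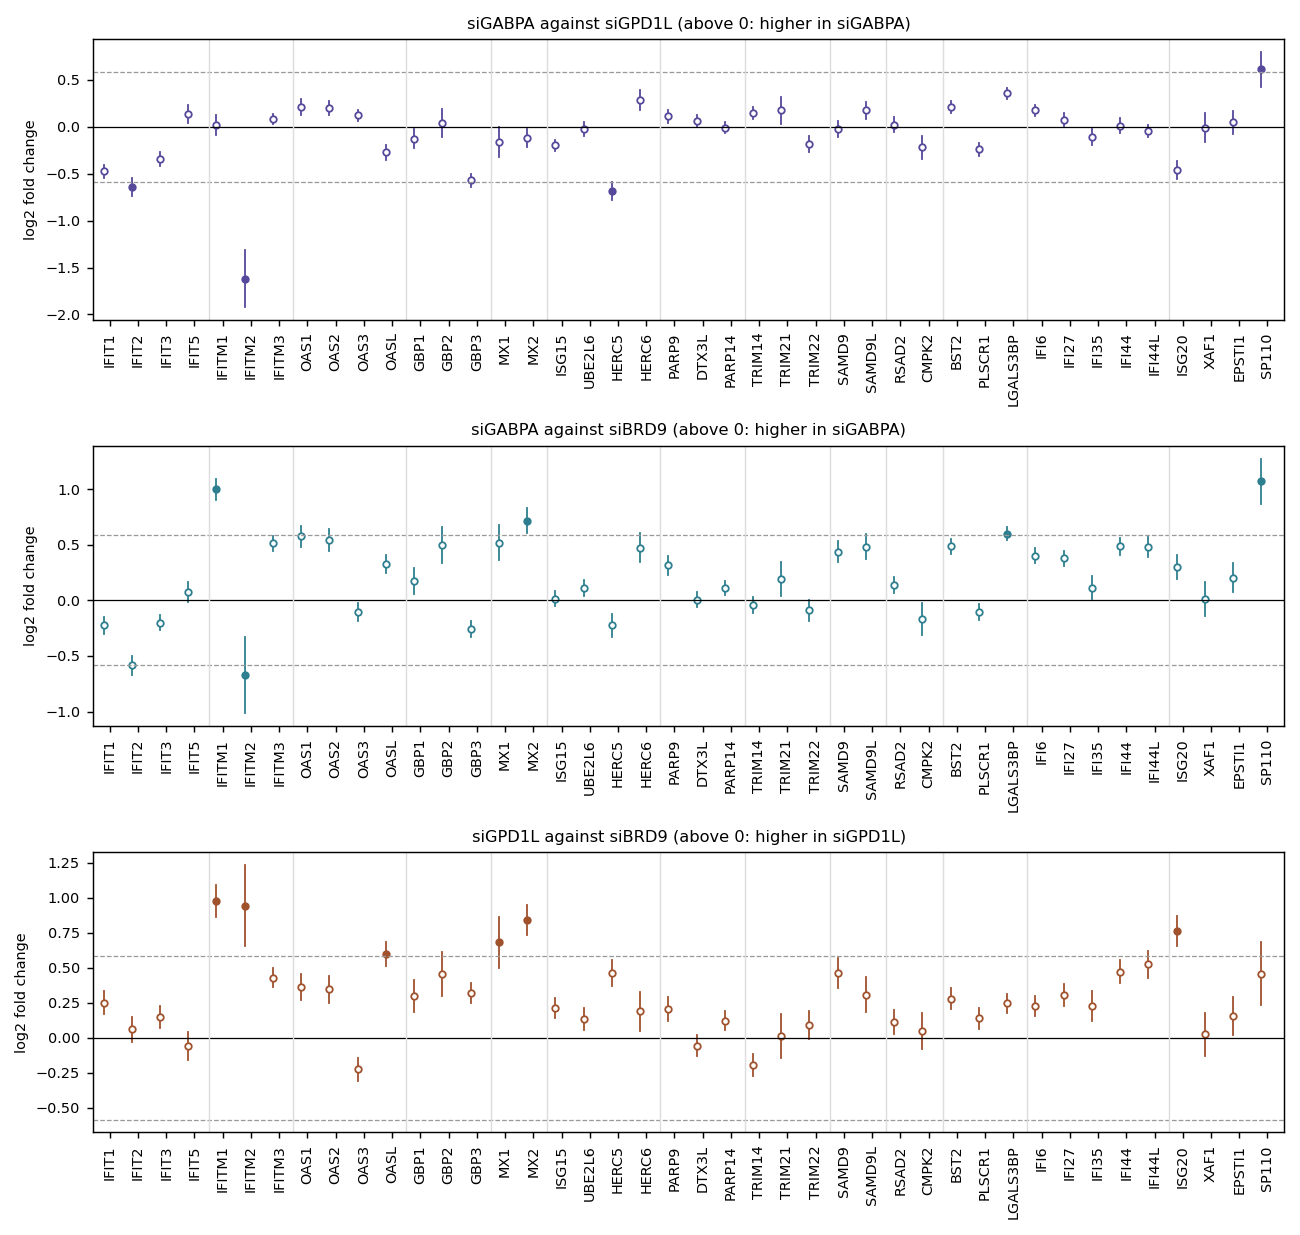
Log2 fold change of each member between the targeting groups, with 95% confidence intervals; filled points were called and dashed lines mark a fold change of 1.5. In the lower panel most points lie above 0, and IFITM2 stands lowest in the upper panel, at -1.62.

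The other genes of the pathway were read from a list of 38 ligands, receptors, kinases, factors, feedback genes and sensors, of which 28 passed the filter in siGABPA and 27 in siGPD1L and siBRD9. Called higher were 9 in siGABPA, 12 in siGPD1L and 10 in siBRD9, where 21.3%, 20.4% and 16.7% of all genes were higher, and called lower 1, 2 and 1, where 15.2%, 15.5% and 11.5% were lower. These counts depended on the processing. Under the alternatives run, 8 to 21, 9 to 18 and 7 to 17 were higher and 1 to 7, 2 to 6 and 1 to 6 lower. Few reads came from ligands. IFNB1, the interferon beta gene, had 0, 0 and 0 counts in siNC, 5, 5 and 2 with siGABPA, 7, 9 and 3 with siGPD1L and 7, 4 and 0 with siBRD9. IFNL1, a type III interferon, had 0, 1 and 0 counts in siNC, 13, 15 and 9 with siGABPA, 31, 17 and 8 with siGPD1L and 10, 13 and 9 with siBRD9. All targeting samples of IFNL1 were above siNC, and those of IFNB1 were at or above it, with 1 siBRD9 sample at 0. A sample at 0 is compatible with up to 3 expected counts, an estimate that covers counting error only, and neither gene passed the filter against siNC. IFNE, a type I interferon, was the one ligand that passed the filter against siNC, in siGABPA, on 8, 4 and 3 counts in siNC and 19, 13 and 16 with siGABPA. It was called higher there at 1.18 ± 0.44 (SE, FDR 0.0238), and lost the call with DESeq2 (FDR 0.0864) and without the first or the third siGABPA sample or the second or the third siNC sample (0.86 to 1.18). IFNG, IFNA1, IFNA2 and IFNW1 had 0 counts in all 12 samples.

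The factors STAT2, IRF7 and IRF9 rose in each targeting group. STAT2 rose from 80.2, 79.1 and 79.2 CPM to 201, 192 and 189 with siGABPA, 180.4, 184 and 179 with siGPD1L and 164, 162 and 171 with siBRD9, a log2 fold change of 1.29 in siGABPA, 1.19 in siGPD1L and 1.07 in siBRD9. IRF7, the factor that amplifies interferon production, changed by 2.60 ± 0.084 in siGABPA, 2.86 ± 0.078 in siGPD1L and 2.52 ± 0.095 in siBRD9 (SE). IRF9, another part of ISGF3, was called higher at 1.64 ± 0.31 in siGABPA, 1.56 ± 0.31 in siGPD1L and 1.14 ± 0.34 in siBRD9 (SE), on 17, 15 and 6 counts in siNC. The IRF9 row overlaps another gene on the same strand, and its call in siBRD9 was lost at 0.74 (FDR 0.0562) without the third siNC sample.

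Of the 8 sensors on the list 7 were tested, and 3 were called higher in siGABPA and 4 each in siGPD1L and siBRD9. DDX58 (RIG-I) was at 19.5, 22.8 and 20.8 CPM in siNC, 90.1, 89.9 and 93.3 with siGABPA, 94.5, 102 and 93 with siGPD1L and 82.9, 79.2 and 91 with siBRD9, a log2 fold change of 2.11 in siGABPA, 2.20 in siGPD1L and 2.02 in siBRD9. IFIH1 (MDA5) changed by 1.54 in siGABPA, 1.80 in siGPD1L and 1.76 in siBRD9 and DHX58 (LGP2) by 1.82 in siGABPA, 1.79 in siGPD1L and 1.496 in siBRD9. USP18, which removes ISG15 and damps the type I receptor, was called in siGPD1L and siBRD9 and not in siGABPA, with 0.40 ± 0.073 in siGABPA, 0.93 ± 0.069 in siGPD1L and 0.69 ± 0.072 in siBRD9 (SE). It passed in siGABPA at 0.62 with total counts alone. SOCS1, an inhibitor of JAK kinases, had 17, 10 and 16 counts in siNC, and was called higher in siGABPA, at 1.17 ± 0.29, and siGPD1L, at 1.43 ± 0.27 (SE), and not in siBRD9, at 0.53 ± 0.32 (SE). The receptor chain IFNAR1 had log2 fold changes of -0.41 ± 0.042 in siGABPA, -0.77 ± 0.047 in siGPD1L and -0.28 ± 0.043 in siBRD9 (SE) and was called lower only in siGPD1L, while IFNAR2, at 0.24 in siGABPA, 0.22 in siGPD1L and 0.30 in siBRD9, was not called. IFNGR2, a chain of the interferon gamma receptor, was called higher in each group, at 0.70 in siGABPA, 0.65 in siGPD1L and 0.97 in siBRD9. IFNLR1, the type III receptor chain, had values of 0.52 in siGABPA, 0.83 in siGPD1L and 0.59 in siBRD9, and was called in siGPD1L and siBRD9, the latter at the edge of the threshold and lost at 0.52 without the first siBRD9 or the first siNC sample and at 0.56 without the second siNC sample. EIF2AK2 (PKR), the kinase that stops translation on double-stranded RNA, had 0.58 ± 0.029 in siGABPA, 0.59 ± 0.037 in siGPD1L and 0.77 ± 0.033 in siBRD9 (SE), and its call in siGPD1L was lost at 0.58 with RLE scaling, and at 0.56 to 0.58 without the third siGPD1L or the first or second siNC sample. ADAR, at 0.51 in siGABPA, 0.40 in siGPD1L and 0.49 in siBRD9, TLR3, at 0.33 in siGABPA, 0.29 in siGPD1L and 0.40 in siBRD9, and MAVS, the adaptor of RNA sensing, at -0.22 in siGABPA, -0.30 in siGPD1L and 0.01 in siBRD9, were not called, and the negative values of MAVS had an FDR under 0.05. JAK2 was called higher only in siGPD1L, at 0.67.

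**Figure D4:**
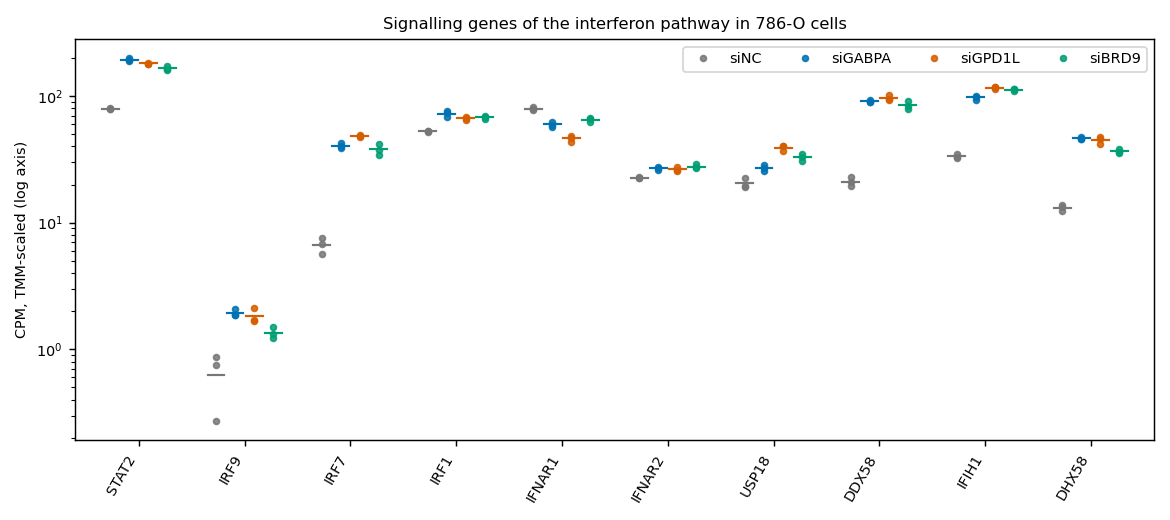
Level of 10 signalling genes in each sample, in TMM-scaled CPM on a log axis, with 3 points per group and a bar at the mean. STAT2, IRF7, DDX58, IFIH1 and DHX58 are lower in all siNC samples than in all targeting samples.

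Markers of other cells and technical measures were set beside these results. The 12 immune markers summed to 12 to 21 counts in the siNC samples and 12 to 38 in the targeting samples. CSF1R was the most abundant of them in siGPD1L, with 21, 21 and 27 counts against 4, 4 and 4 in siNC, and was called higher there at 2.01 ± 0.41 on the log2 scale (SE, FDR 0.000175). It did not pass the filter in siGABPA or siBRD9, and CD3E, MS4A1 and FCGR3A were at 0 in all 12 samples. The 4 endothelial markers summed to 3 to 8 counts in siNC and 6 to 22 in the targeting samples, most of them from KDR and PECAM1. All 8 renal and epithelial markers, among them PAX8, PAX2 and VIM, had 540 counts or more in every sample. The share of mitochondrial counts was 4.61% to 4.79% in siNC and 3.43% to 5.39% in the targeting groups, with siGPD1L lowest. The 100 genes with most counts took 17.3% to 17.5% of counts in siNC and 14.7% to 16.1% in the targeting samples, and the scaling with total counts alone shifted the median of all genes by 0.218, 0.170 and 0.126 on the log2 scale in siGABPA, siGPD1L and siBRD9 against siNC. The part of these measures in the results was not tested. In bulk RNA, a higher share of cells expressing these genes and more RNA per cell cannot be told apart.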

How the data were processed

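RNA from 12 samples of 786-O cells (4 siRNA groups, 3 samples each) was sequenced. The authors deposited raw read counts per gene, whole numbers without normalization, in 1 table with 1 column per sample. The paper names featureCounts for counting, while the submitters' processing notes name HISAT2, HTSeq, DESeq2 and hg38; the annotation, strand setting and read filters are not given in the sources used here. The growth medium differs between the labels and the paper.

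Counts were analysed with edgeR 4.0.16 in R 4.3.3. Each comparison was a fit of its 6 samples with TMM scaling, filterByExpr, the quasi-likelihood test and Benjamini-Hochberg adjustment over all genes tested. Fold changes used a prior count of 0.125, SEs were taken from the test statistic, and intervals are 95%. The thresholds were those of the study. DESeq2 1.42.0, limma voom (limma 3.58.1), other scalings, filters, fits and left-out samples were alternatives. The fit was tested on simulated counts for siBRD9 against siNC, with 200 of 14795 genes changed. It recovered 100 of 100 genes changed 2-fold and 100 of 100 changed 4-fold, and 2.44% of its calls were wrong. In the data 2588 genes were called higher and 1773 lower in this comparison, so the simulation did not test scaling under changes that wide. Positions and overlapping genes came from GENCODE 29 (GRCh38), which holds 56868 of the identifiers and lacks 3580.

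The 42 members and the gene lists were chosen with earlier results of these data known. Genes named are the siRNA targets, all IFIT, IFITM, OAS, GBP and MX genes, the largest and smallest change of each other role group, the members called between targeting groups, and pathway genes fixed by name or called with a mean of at least 100 counts. The remaining members and pathway genes were added after their values were seen. The results of some genes that the rule names are not reported here.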

Additional observations from a re-analysis of the deposited data

How the results depend on the processing

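Against siNC, the members called higher and the 0 called lower kept their counts within 1.5 times under every alternative run (36 to 41 in siGABPA, 38 to 42 in siGPD1L, 36 to 40 in siBRD9). Scaling by total counts alone gave medians of 1.91, 2.11 and 1.83, higher by the shift of all genes, and 8 members higher in siGABPA than in siBRD9. With at least 10 counts in every sample, the siGABPA median was 1.75. Leaving out each sample gave 1.67 to 1.78 for that median. Between targeting groups, calls by FDR alone were 14 and 15 (siGABPA higher and lower than siGPD1L), 26 and 9 (siGABPA against siBRD9) and 32 and 2 (siGPD1L against siBRD9). A test against a fold change of 1.5 (glmTreat) gave 0 and 1, 2 and 0, and 3 and 0. Members lower in siGABPA than in siBRD9 numbered 2 under RLE scaling, DESeq2, voom and the fit of all 12 samples, and 0 to 2 with a sample left out. Members higher in siGABPA than in siGPD1L numbered 0 to 1 with a sample left out. GBP1 in siBRD9 turned positive with total counts alone (0.0846) and without the second siBRD9 sample (0.0217), and it lay between -0.0844 and 0.0217 with a sample left out. IFIT5 passed the threshold with total counts alone in siGPD1L (0.66) and siBRD9 (0.69), as did TRIM21 in siGABPA (0.61), GBP2 in siGABPA (0.75) and siGPD1L (0.68), TRIM22 in siGABPA (0.75) and GBP3 in siBRD9 (0.64). Of the pathway list, 9, 12 and 10 genes were called higher in siGABPA, siGPD1L and siBRD9 and 1, 2 and 1 lower; by FDR alone these were 21, 18 and 17 higher and 7, 6 and 6 lower, and with total counts alone 17 were higher in siGABPA. Without the second siGABPA sample 2 were lower there. The cause of these changes was not tested, beyond the fewer genes or samples where those were the alternative.

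The groups share replicate numbers, but same-numbered samples did not deviate together (r from -0.09 to 0.05, 0 of 18 pairs over 0.1). This does not show that they share only a number, because a shared batch could be smaller than the spread between samples. With the replicate number as a block, 37, 38 and 37 members were called higher against siNC and 1 and 3, 4 and 1, and 6 and 0 between targeting groups, as without the block.

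Library totals limit IFNB1, IFNL1, IRF9, IFITM2 and the siNC level of IFITM1, which rest on few counts. Reads shared between neighbouring, overlapping or similar genes cannot be separated here.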
